A study of Mus musculus with 4 samples.

Results

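The genes described here are 50 genes of the cell division cycle, read in 4 kinds of dendritic cell (DC) that were sorted from mouse spleens. They were chosen by name and by textbook role, though with earlier results of these data known. Of the 50 genes, 49 could be matched to at least 1 probe set that names that gene alone, out of 18193 genes matched in this way. The signal of Ccnb1 was not analysed here, and this gene enters only the search for promoter motifs. The 49 genes had 120 probe sets between them, and each gene was read at the brightest of its own, by mean log2 signal. All 4 samples came from Cx3cr1gfp/+ C57BL/6 mice, in which 1 copy of the chemokine receptor gene Cx3cr1 carries a gene for green fluorescent protein, so that fluorescence stands in for activity of its promoter. The field for BMP4 treatment holds a minus sign for each of them. After collagenase digestion, CD11c+ cells were enriched on magnets and CD11c-high cells were sorted as CD8+CX3CR1+, CD8+CX3CR1-, CD4+ and DN (by usage in the field, cells with neither CD4 nor CD8). Total RNA of each subset was hybridised to 1 Affymetrix mouse genome array. The sources used here do not state the age or number of the mice, the gates or any pooling. With 1 array per subset there is no replicate, no test and no error between mice, and every difference below describes a pair of arrays.

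The cell division cycle runs from G1, in which D-type and E-type cyclins push cells past the retinoblastoma protein, through DNA synthesis (S) to G2 and mitosis (M). Genes for DNA synthesis are switched on by E2F factors at the start of S phase. Genes for mitosis follow later, through the DREAM and MuvB complexes, B-Myb and FOXM1, which act at promoters with a CHR element and binding sites for NF-Y. Spleen DCs are short-lived cells that are replaced from precursors arriving from the bone marrow, and some of them still divide within the spleen.

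Values are MAS5 signals, a linear measure per probe set read from several short probes, and levels are compared between arrays and not between genes. A floor of 55.7 was set from probe sets for genes not expected in spleen, and lower values were raised to it. Of the 49 genes, 47 passed the floor somewhere and 41 did so on all 4 arrays. No gene passed on 1 array alone, while Ccne2 (cyclin E2) and Tyms (thymidylate synthase) lay under the floor on every array, and the Tyms probe set shared with a pseudogene was not used. Signals of the sorting markers followed the titles of the samples. Cd8a read 2530, 4742, 18.7 and 130, Cx3cr1 894, 97.3, 275 and 258 and Cd4 93.3, 21.1, 564 and 93.9 in CD8+CX3CR1+, CD8+CX3CR1-, CD4+ and DN DCs, and Itgax (CD11c) stayed between 3271 and 6415. The label field for the DC type goes against the title for the CD8+CX3CR1- and DN samples, and titles were used. The ratio of 3' to 5' signal for control probe sets rises as RNA is degraded. For Gapdh it was 8.98, 8.33, 11.8 and 7.56 in CD8+CX3CR1+, CD8+CX3CR1-, CD4+ and DN DCs. For actin it was 2.32, 1.79, 2.86 and 2.23 in the same order. Both ratios were thus higher in CD8+CX3CR1+ and CD4+ DCs than in CD8+CX3CR1- and DN DCs.

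The cell cycle genes were lowest in CD8+CX3CR1+ DCs and highest in CD8+CX3CR1- and DN DCs. Of the 47 genes above the floor, 35 (74.5%) had their lowest signal in CD8+CX3CR1+ DCs, as did 23.1% of all 12608 genes above the floor. CD8+CX3CR1- DCs were highest for 21 genes (44.7%, against 26.8% of all) and DN DCs for 18 (38.3%, against 18.1%). CD4+ DCs were highest for 8 genes (17.0%, against 32.4%) and CD8+CX3CR1+ DCs for 0 (against 22.7%). The lowest signal lay with CD8+CX3CR1- DCs for 4 genes (8.51%, against 30.2%), with CD4+ DCs for 6 (12.8%, against 24.3%) and with DN DCs for 2 (4.26%, against 22.3%). At least 2-fold lay between the highest and the lowest array for 29 genes (61.7%, against 28.4%). These orders use the signals before the floor, and Foxm1, counted as lowest for DN DCs, lay under the floor in CD8+CX3CR1- DCs as well. For 33 of the 47 genes (70.2%) both CD8+CX3CR1- and DN DCs lay above both others, an order found for 16% of all genes above the floor. The median signal of the 47 genes was 211 in CD8+CX3CR1+ DCs, 398 in CD8+CX3CR1- DCs, 301 in CD4+ DCs and 403 in DN DCs. Over all genes above the floor it was 161, 146, 161 and 155 in the same order, a narrower spread that did not follow the cell cycle genes. Each value is the average of a sorted population, so fewer dividing cells and less of these RNAs per dividing cell cannot be told apart. The 3' to 5' ratios of both controls split the arrays the same way, being higher in CD8+CX3CR1+ and CD4+ DCs. The part of RNA quality in the order of the arrays was not tested.

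**Figure D1:**
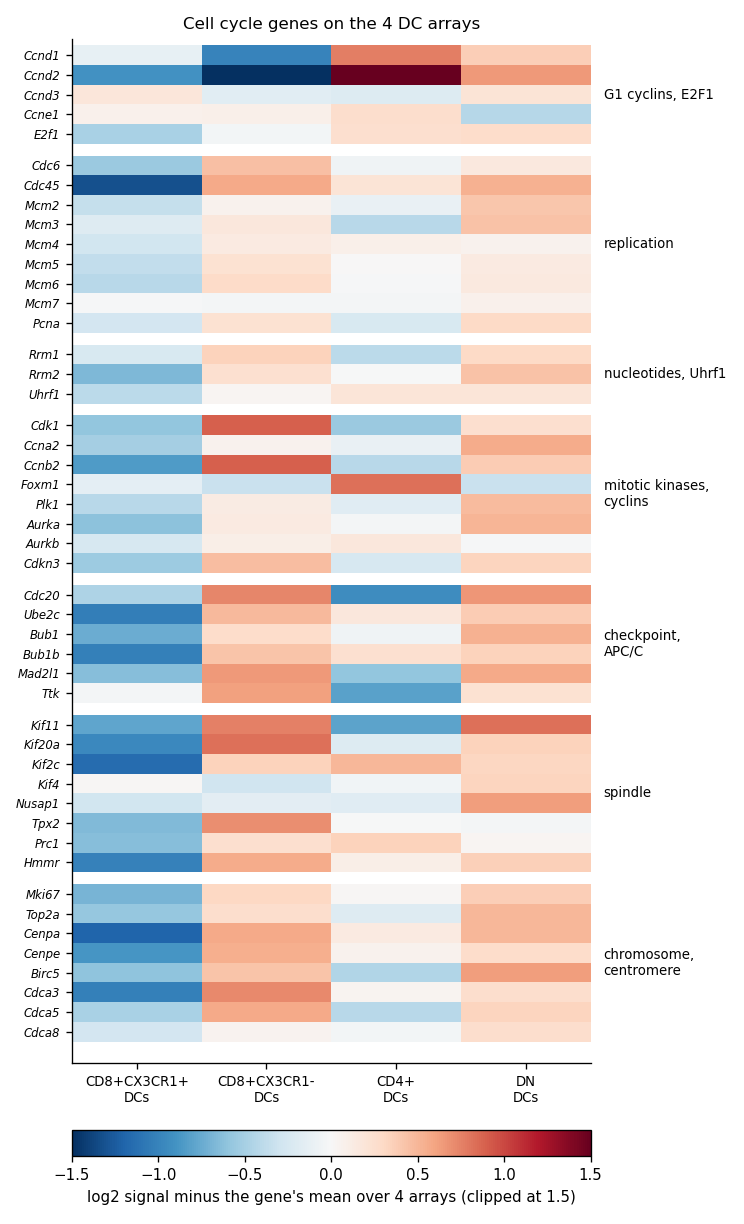
Each row is 1 of the 47 cell cycle genes above the floor, grouped by role, and each column 1 DC array. Colour gives log2 signal minus the gene's mean over the 4 arrays (blue lower, red higher, clipped at 1.5). The CD8+CX3CR1+ column is blue for most rows below the G1 group and the lowest of the 4 for 35 genes, while Ccnd1 and Ccnd2 at the top are lowest in CD8+CX3CR1- DCs.

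Between the CD8+ subsets, 21 of the 47 genes (44.7%) were at least 2-fold lower in CD8+CX3CR1+ DCs than in CD8+CX3CR1- DCs, and 0 were at least 2-fold higher. The background of all genes above the floor was 5.81% lower and 7.72% higher. The median log2 difference of the cell cycle genes was -0.84, against 0 for all genes above the floor. Below 0 lay 41 of the 47, and 5247 of all 12608 genes above the floor. Read at the next brightest probe set, which 32 of the genes have above the floor, the median was only -0.20, with 8 of the 32 at least 2-fold lower and 4 higher. Over all genes with such a probe set, 4.88% were lower and 6.17% higher. These further probe sets are dimmer, with a median highest signal of 205, against 618 at the probe set used for the same genes. Of 11 genes at least 2-fold lower that have further probe sets above the floor, 6 were lower at every one of them, and Bub1, Cdca3, Cenpa, Kif2c and Tpx2 were not. For Kif2c the only exception was a probe set that lay under the floor in both CD8+ subsets (3.3 and 10.8).

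Against DN DCs CD8+CX3CR1+ DCs were again at least 2-fold lower for 21 genes (44.7%) and higher for 0, where the background was 2.93% and 2.97%, and the median was -0.88. Most of the 6 pairs share an array with one another, so they are not independent. At the next brightest probe set the median was -0.46, with 8 of 32 genes at least 2-fold lower (all genes 2.80%) and 1 higher (all genes 2.90%). Of 13 genes at least 2-fold lower with further probe sets above the floor, 8 were lower at every one, and Bub1, Cdc45, Cdca3, Cenpa and Kif2c were not. For Cdc45 the further probe set lay under the floor in both CD8+CX3CR1+ and DN DCs (22.8 and 54.2). Against CD4+ DCs CD8+CX3CR1+ DCs were at least 2-fold lower for 8 genes (17.0%, background 4.89%) and higher for 0 (background 4.47%), with a median of -0.40. CD8+CX3CR1- DCs exceeded CD4+ DCs by at least 2-fold for 7 genes (14.9%, background 6.78%) and were lower by as much for 3 (6.38%, background 9.11%), with a median of 0.30. CD4+ DCs were at least 2-fold lower than DN DCs for 5 genes (10.6%, background 3.23%) and higher for 2 (4.26%, background 4.34%), with a median of -0.36. With arrays scaled to an equal median, CD8+CX3CR1- DCs were higher than CD4+ DCs for 13 genes and lower for 2, and the shares of all genes moved the same way, to 12.7% and 5.19%. CD4+ DCs were then lower than DN DCs for 10 genes (all genes 6.92%) and higher for 1 (all genes 1.66%). CD8+CX3CR1+ DCs were lower than CD4+ DCs for only 4 genes (all genes 2.18%) under that scaling and higher for 0 (all genes 9.44%), and lower for 5 with the mean over probe sets (all genes 4.81%). That scaling also moved the median of all genes above the floor, to 0.15 for CD8+CX3CR1- minus CD4+, -0.12 for CD4+ minus DN and 0.18 for CD8+CX3CR1+ minus CD4+, where the cell cycle genes stood at 0.65, -0.64 and -0.07. Between CD8+CX3CR1- and DN DCs the median was 0.03 and the only genes at least 2-fold apart were Ccnd1 and Ccnd2, both lower in CD8+CX3CR1- DCs (4.26%, background 6.17%, and 0 higher, background 4.75%). At 4-fold the only gene apart in any pair was Ccnd2, lower in CD8+CX3CR1- DCs than in CD4+ DCs (background 1.8% lower, 1.18% higher), lower in CD8+CX3CR1- DCs than in DN DCs (1.28% and 0.738%) and lower in CD8+CX3CR1+ DCs than in CD4+ DCs (0.373% and 0.397%).

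**Figure D2:**
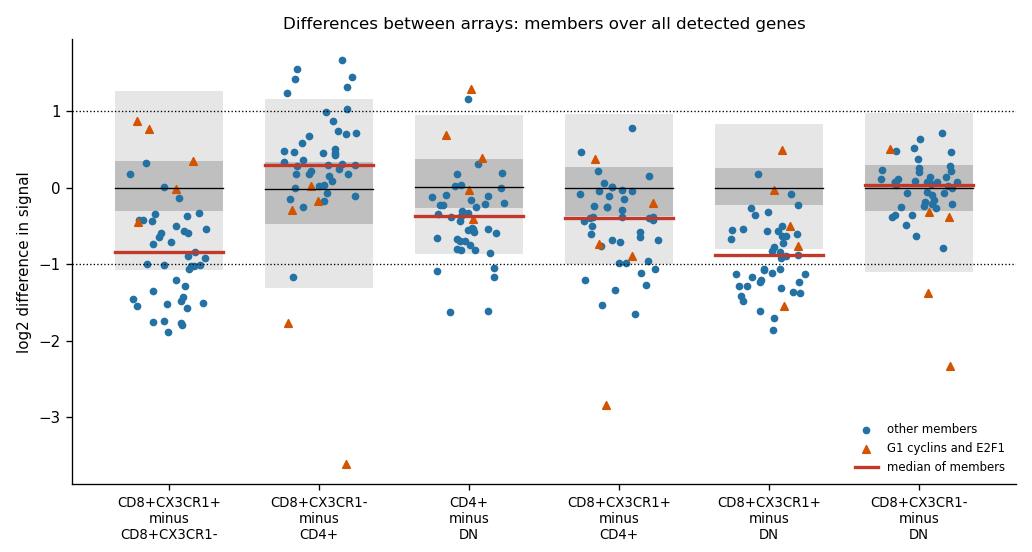
Log2 differences in signal for each pair of arrays (first minus second named on the horizontal axis). Grey boxes span the 5th to 95th percentile (light) and the middle of the distribution between its quartiles (dark) of all 12608 genes above the floor, points are the 47 cell cycle genes with the G1 group as triangles, red lines their medians, and dotted lines mark 2-fold. The red line lies lowest for CD8+CX3CR1+ minus CD8+CX3CR1- (-0.84) and CD8+CX3CR1+ minus DN (-0.88) and near 0 for CD8+CX3CR1- minus DN (0.03).

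Among the G1 genes, Ccnd1 and Ccnd2 ran in an order of their own. Ccnd1, which encodes cyclin D1, the partner of CDK4 and CDK6 that answers to growth signals, had a signal of 8056 in CD8+CX3CR1+ DCs, 4397 in CD8+CX3CR1- DCs, 14948 in CD4+ DCs and 11359 in DN DCs. CD4+ DCs were thus 3.40-fold above CD8+CX3CR1- DCs, and DN DCs 2.58-fold above the same. Ccnd2, the gene of cyclin D2, read 229, 134, 1636 and 671 in the same order. It was 12.2-fold higher in CD4+ than in CD8+CX3CR1- DCs, the widest difference of any cell cycle gene here, 7.15-fold higher in CD4+ than in CD8+CX3CR1+ DCs and 2.44-fold higher than in DN DCs. All 3 probe sets of Ccnd1 and 4 of the 6 probe sets of Ccnd2 above the floor were lowest in CD8+CX3CR1- DCs, and at the other two of Ccnd2 this array and another both lay under the floor. The highest array differed between probe sets, being DN DCs at 2 of the 3 for Ccnd1 and CD4+ DCs at 5 of the 6 for Ccnd2. Ccnd3 (cyclin D3) spanned only 1.33-fold at the probe set used, from 780 to 1034. Its further probe sets above the floor were dimmer, at 161, 35.8, 56.5 and 110 and at 24.9, 63.2, 56.8 and 57.5 in the same order. At the first of these CD8+CX3CR1- DCs lay under the floor, and CD8+CX3CR1+ DCs were at least 2.89-fold above them. Ccne1, whose cyclin E1 activates CDK2 at the start of S phase, spanned 1.61-fold and was highest in CD4+ DCs. Its other probe set above the floor read 56.7, 190, 166 and 141 in the same order of subsets and was lowest in CD8+CX3CR1+ DCs. E2f1 spanned 1.70-fold and was highest in DN DCs. CD8+CX3CR1- DCs were therefore high for the genes of mitosis and lowest for both of the D-type cyclins that differed by 2-fold at the probe sets used.

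**Figure D3:**
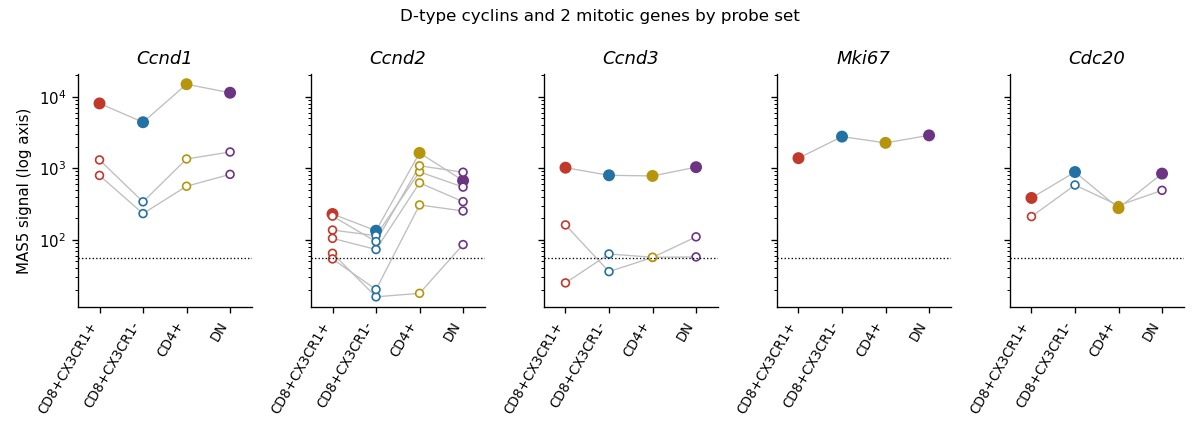
MAS5 signal (log axis) on the 4 DC arrays for the D-type cyclin genes and, beside them, the proliferation marker Mki67 and the mitotic gene Cdc20. Each line is a probe set above the floor on some array, filled points mark the probe set used, and the dotted line is the floor of 55.7. Every line of Ccnd1 and 4 of the 6 lines of Ccnd2 are lowest in CD8+CX3CR1- DCs (in the other two another array is under the floor as well), at 4397 and 134 for the probe sets used, where Mki67 read 2767.

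Most of the 9 genes of replication licensing and the replication fork spanned less than 2-fold, Cdc6 and Cdc45 being the exceptions. Of the 9 genes, 2 (22.2%, background 5.81%) were at least 2-fold lower in CD8+CX3CR1+ than in CD8+CX3CR1- DCs. The difference lay below 0 for 8 of 9 (all genes 5247 of 12608), and the group's median was -0.50. Cdc6, which loads the MCM helicase onto origins, read 86.4, 174, 122 and 142 in CD8+CX3CR1+, CD8+CX3CR1-, CD4+ and DN DCs, 2.01-fold lower in CD8+CX3CR1+ than in CD8+CX3CR1- DCs. Cdc45, the part of the active helicase that is added when an origin fires, lay under the floor in CD8+CX3CR1+ DCs (49.1) and read 206, 161 and 202 in the other subsets. It was at least 3.70-fold lower in CD8+CX3CR1+ than in CD8+CX3CR1- DCs, and at least 3.62-fold lower than in DN DCs. Pcna, the sliding clamp of DNA polymerases, read 3888, 5498, 3984 and 5774, which put CD8+CX3CR1+ and CD4+ DCs together below CD8+CX3CR1- and DN DCs by at most 1.49-fold. The MCM subunits that form the ring of the helicase spanned 1.07-fold for Mcm7, 1.34-fold for Mcm4, 1.51-fold for Mcm5, 1.63-fold for Mcm6, 1.71-fold for Mcm2 and 1.80-fold for Mcm3. Mcm4, Mcm5 and Mcm6 were highest in CD8+CX3CR1- DCs, and Mcm2, Mcm3 and Mcm7 in DN DCs.

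In the group of nucleotide supply, Rrm2, the subunit of ribonucleotide reductase that is made in S phase, read 720, 1367, 1151 and 1560 in the same order and was 2.17-fold lower in CD8+CX3CR1+ than in DN DCs. Its 3 probe sets above the floor were all lowest in CD8+CX3CR1+ DCs. Rrm1, the large subunit of the same enzyme, spanned 1.67-fold and was lowest in CD4+ DCs (585). Uhrf1, which guides the maintenance of DNA methylation after replication, spanned 1.52-fold, from 206 in CD8+CX3CR1+ DCs to 313 in CD4+ DCs. Its other probe set above the floor read 129, 118, 182 and 56.3 and was lowest in DN DCs.

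Among the genes that drive entry into mitosis, 3 of 8 (37.5%, background 5.81%) were at least 2-fold lower in CD8+CX3CR1+ than in CD8+CX3CR1- DCs. Against DN DCs 3 of 8 were lower as well (37.5%, background 2.93%). Cdk1, the kinase that starts mitosis, read 296, 825, 301 and 530 in CD8+CX3CR1+, CD8+CX3CR1-, CD4+ and DN DCs. CD8+CX3CR1+ and CD4+ DCs were alike for this gene, and CD8+CX3CR1- DCs were 2.79-fold above the first and 2.74-fold above the second of these. Ccnb2, a B-type cyclin partner of that kinase, read 189, 634, 254 and 443, a 3.36-fold lower signal in CD8+CX3CR1+ than in CD8+CX3CR1- DCs. Ccna2 (cyclin A2), which acts in S phase and G2, read 372, 552, 488 and 773, and was 2.08-fold lower in CD8+CX3CR1+ than in DN DCs. At its other probe set above the floor CD8+CX3CR1- DCs led. Aurka, a kinase of the spindle poles, read 151, 252, 226 and 328. Cdkn3, a phosphatase that acts on CDKs, read 54.5, 113, 68.3 and 102, under the floor in CD8+CX3CR1+ DCs and at least 2.02-fold lower there than in CD8+CX3CR1- DCs. Foxm1, the transcription factor of G2 and M genes, lay near the floor, at 63.3, 41.0, 125 and 33.8, and was the one gene of this group that was highest in CD4+ DCs by at least 2-fold over CD8+CX3CR1- and DN DCs. Its other probe set above the floor had its lowest value in CD8+CX3CR1+ DCs instead. Plk1 and Aurkb, kinases of mitosis, spanned 1.86-fold and 1.33-fold at the probe sets used, both lowest in CD8+CX3CR1+ DCs. The other probe set of Aurkb above the floor read 66.3, 146, 42.3 and 104 and was lowest, under the floor, in CD4+ DCs.

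The spindle checkpoint holds back the anaphase-promoting complex (APC/C), which starts the separation of chromosomes. Of the 6 genes in this group, 5 (83.3%, background 5.81%) were at least 2-fold lower in CD8+CX3CR1+ than in CD8+CX3CR1- DCs (group median -1.24). Against DN DCs 5 were lower (83.3%, background 2.93%), with a median of -1.24. Cdc20, the activator of the APC/C in mitosis, read 384, 884, 277 and 841, so that CD4+ DCs were 3.20-fold below CD8+CX3CR1- DCs and 3.04-fold below DN DCs. Its other probe set above the floor read 211, 582, 301 and 491 and was lowest in CD8+CX3CR1+ DCs instead. Ube2c, the ubiquitin-conjugating enzyme of the APC/C, read 155, 447, 359 and 413, and here only CD8+CX3CR1+ DCs were low. Bub1b (BubR1), a checkpoint protein, had the same shape at 355, 974, 857 and 923, and 2 of its 3 probe sets above the floor were lowest in CD8+CX3CR1+ DCs, which in the third lay under the floor together with CD4+ DCs. Mad2l1 (MAD2), another checkpoint protein, read 287, 701, 296 and 663, with CD8+CX3CR1+ and CD4+ DCs both low. Bub1, a checkpoint kinase, read 67.4, 137, 108 and 164, and its dimmer probe set, above the floor only in CD8+CX3CR1+ and CD4+ DCs, went the other way. Ttk (MPS1), the kinase that starts checkpoint signalling, read 95.6, 149, 55.6 and 115 and was lowest, just under the floor, in CD4+ DCs.

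Of the 8 genes of spindle motors and microtubule proteins, 5 (62.5%, background 5.81%) were at least 2-fold lower in CD8+CX3CR1+ than in CD8+CX3CR1- DCs. The group median was -1.43. Kif11 (Eg5), the motor that pushes spindle poles apart, read 71.6, 210, 71.2 and 219, with CD8+CX3CR1+ and CD4+ DCs nearly equal and both about as far below CD8+CX3CR1- and DN DCs. Its further probe sets above the floor did not repeat this, at 109, 114, 93.7 and 184 and at 54.2, 87.0, 97.8 and 68.6. Kif20a, a motor of the central spindle and cell division, read 55.4, 193, 94.2 and 138, under the floor in CD8+CX3CR1+ DCs and at least 3.46-fold lower there than in CD8+CX3CR1- DCs. Hmmr, a spindle protein also known as RHAMM, read 156, 465, 339 and 403. Kif2c (MCAK), which takes microtubules apart at centromeres, read 53.7, 158, 175 and 155, with only CD8+CX3CR1+ DCs low, under the floor. Its further probe sets above the floor had other orders, at 60.8, 98.4, 40.1 and 55.3, at 71.5, 82.5, 104 and 59.9 and at 3.30, 10.8, 120 and 59.1. Tpx2, which activates Aurora A on the spindle, read 118, 301, 184 and 182, but 2 of its 3 further probe sets above the floor were lower in CD8+CX3CR1- DCs. Prc1, which bundles microtubules between separating chromosomes, read 221, 408, 438 and 352 and was lowest in CD8+CX3CR1+ DCs at both probe sets above the floor. Nusap1, a protein that binds spindle microtubules, was highest in DN DCs (399) and lay between 211 and 231 in the others. Kif4, a motor on chromosome arms, spanned 1.55-fold near the floor (62.7 to 97.3).

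In the group of chromosome and centromere proteins all 8 genes were lowest in CD8+CX3CR1+ DCs at the probe sets used (100%, against 23.1% of all genes above the floor). Of these, 6 (75%, background 5.81%) were at least 2-fold lower there than in CD8+CX3CR1- DCs (group median -1.04). Mki67, whose product Ki-67 coats mitotic chromosomes and marks cycling cells, read 1383, 2767, 2262 and 2879, 2.0-fold lower in CD8+CX3CR1+ than in CD8+CX3CR1- DCs and 2.08-fold lower than in DN DCs. Top2a, the topoisomerase that untangles replicated DNA, read 721, 1291, 940 and 1523. Birc5 (survivin), a subunit of the chromosomal passenger complex, read 161, 326, 177 and 376, with CD4+ DCs close to CD8+CX3CR1+ DCs. Cdca8 (borealin), another subunit of that complex, spanned 1.46-fold at the probe set used. Its further probe sets read 407, 942, 427 and 879, lowest in CD8+CX3CR1+ DCs, and 241, 173, 212 and 181, highest there. Cenpa, the histone H3 variant of centromeres, read 117, 397, 294 and 378, 3.41-fold lower in CD8+CX3CR1+ than in CD8+CX3CR1- DCs, although a dimmer probe set read 78.8 and 36.5 in these. Cenpe, a kinetochore motor, read 106, 285, 205 and 238, and its dimmer probe set was lowest in CD8+CX3CR1+ DCs as well. Cdca5 (sororin), which protects cohesion between sister chromatids, read 806, 1684, 850 and 1430. At its dimmer probe set Cdca5 read 219, 250, 223 and 218, lowest by little in DN DCs. Cdca3, a trigger of mitotic entry, read 105, 352, 219 and 255, while its other probe sets lay near or under the floor.

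For the 21 genes at least 2-fold lower in CD8+CX3CR1+ than in CD8+CX3CR1- DCs, the position of the other arrays between these ends was described on the log2 scale. DN DCs lay nearer to CD8+CX3CR1- DCs for 20 of them, Tpx2 being the exception. CD4+ DCs lay nearer to CD8+CX3CR1+ DCs for 11 and nearer to CD8+CX3CR1- DCs for 10. The first kind, from the lowest CD4+ signal relative to both ends upward, were Cdc20, Kif11, Cdk1, Mad2l1, Cdca5, Birc5, Ccnb2, Cdkn3, Kif20a, Tpx2 and Cdc6, in that order. At the other probe set of Cdc20 above the floor CD4+ DCs lay above CD8+CX3CR1+ DCs, and not below them. CD4+ DCs came closest to CD8+CX3CR1- DCs, or passed them, for Kif2c, Bub1b, Cdc45, Ube2c and Cenpa. The Gapdh and actin 3' to 5' ratios were highest for CD4+ DCs too (11.8 and 2.86), and the part of RNA quality in the CD4+ values was not tested. This description was chosen after the values were seen.

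The order in which CD8+CX3CR1- and DN DCs lie above the other subsets was also laid out as a pair of comparisons that share no array, chosen after that order was seen, so it is the same observation and no further support. Of the 47 cell cycle genes, 34 (72.3%) were higher in CD8+CX3CR1- than in CD8+CX3CR1+ DCs and also higher in DN than in CD4+ DCs, as were 19.3% of all genes above the floor. For 4 genes, Cdc20, Kif11, Mad2l1 and Birc5, both differences reached 2-fold (8.51%, against 0.547% of all). At the further probe sets of Kif11 they did not. At the other probe set of Cdc20 above the floor the difference between DN and CD4+ DCs did not. Across the 47 genes the differences had a Pearson correlation of 0.44 and a Spearman correlation of 0.30. Without the G1 group these were 0.24 and 0.14 over 42 genes. The subsets can also be paired as CD8+CX3CR1+ with CD4+ and CD8+CX3CR1- with DN, which gave medians of -0.40 and 0.03, or as CD8+CX3CR1+ with DN and CD8+CX3CR1- with CD4+, which gave -0.88 and 0.30. These correlations are across genes read on the same 4 arrays, and genes are not replicates.

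**Figure D4:**
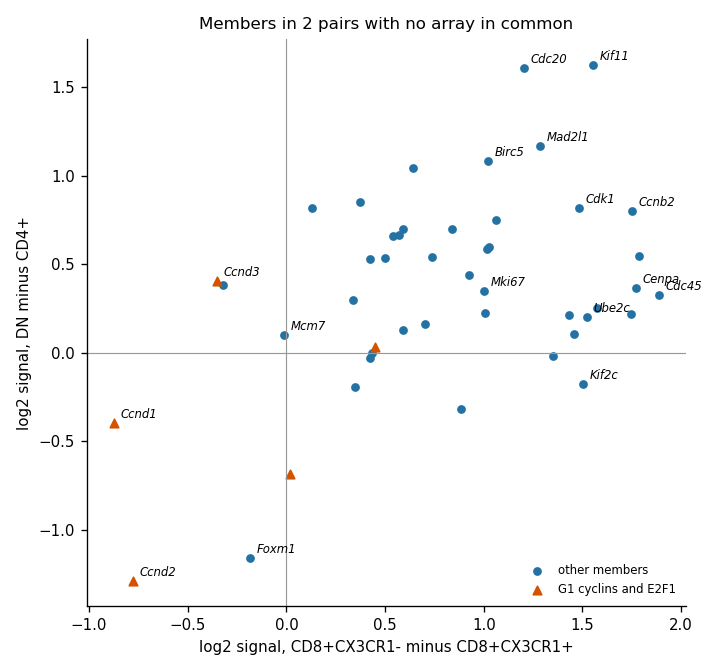
Each point is 1 of the 47 cell cycle genes, placed by its log2 difference between CD8+CX3CR1- and CD8+CX3CR1+ DCs (horizontal) and between DN and CD4+ DCs (vertical), which share no array. Orange triangles are the G1 group. 34 points lie in the upper right part, above 0 on both axes, and Ccnd1 and Ccnd2 in the lower left.

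Promoter sequences are shown for 4 genes of mitosis that were lowest in CD8+CX3CR1+ or CD4+ DCs and for a pair of MCM genes that differed little. They were picked as examples of different motifs, and other genes of the same roles can differ from them. They are RefSeq sequences of mouse build GRCm38.p6, from 170 bases before the start site to the base before it, 5′ to 3′ on the strand of the gene. Cdk1 lies at chr10:69352913-69353082 and Ccnb2 at chr9:70421555-70421724, both on the minus strand, Cdc20 at chr4:118437344-118437513 on the minus strand and Kif11 at chr19:37376212-37376381 on the plus strand. The stretch of Mcm5 is chr8:75109339-75109508 on the plus strand and that of Mcm6 is chr1:128359706-128359875 on the minus strand. Capitals mark, on either strand, the NF-Y box CCAAT, the CHR element TTTGAA and the E2F motifs TTCCCGC or TTGGCGC.
Cdk1: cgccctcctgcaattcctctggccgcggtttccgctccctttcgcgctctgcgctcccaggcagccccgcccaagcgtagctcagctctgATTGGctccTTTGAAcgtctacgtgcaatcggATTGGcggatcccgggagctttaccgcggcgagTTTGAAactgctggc
Ccnb2: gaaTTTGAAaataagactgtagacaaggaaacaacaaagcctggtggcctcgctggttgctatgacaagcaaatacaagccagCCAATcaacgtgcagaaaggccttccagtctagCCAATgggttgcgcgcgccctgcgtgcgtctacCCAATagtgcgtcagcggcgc
Cdc20: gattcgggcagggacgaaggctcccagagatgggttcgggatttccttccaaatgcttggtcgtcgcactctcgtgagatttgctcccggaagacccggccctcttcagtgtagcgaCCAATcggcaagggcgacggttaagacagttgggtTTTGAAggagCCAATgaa
Kif11: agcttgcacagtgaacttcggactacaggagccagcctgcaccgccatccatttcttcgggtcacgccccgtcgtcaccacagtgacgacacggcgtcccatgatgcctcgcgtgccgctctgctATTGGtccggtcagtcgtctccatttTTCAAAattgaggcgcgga
Mcm5: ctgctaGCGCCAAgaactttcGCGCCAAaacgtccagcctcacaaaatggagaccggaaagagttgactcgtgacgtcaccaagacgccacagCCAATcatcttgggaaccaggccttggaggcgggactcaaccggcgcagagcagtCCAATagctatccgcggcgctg
Mcm6: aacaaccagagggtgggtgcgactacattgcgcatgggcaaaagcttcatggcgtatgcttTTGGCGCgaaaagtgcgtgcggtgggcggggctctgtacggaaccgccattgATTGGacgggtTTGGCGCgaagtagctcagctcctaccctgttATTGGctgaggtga

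The Cdk1 stretch holds 2 NF-Y boxes, each with a CHR element downstream of it. Beyond the stretch shown, an E2F motif begins 178 bases before the start site of Cdk1 and a further NF-Y box 208 bases before it. That of Ccnb2 holds 3 NF-Y boxes at even steps of 33 bases, with 1 CHR element far upstream, and another CHR element begins just after the start site. In Cdc20 a CHR element stands between 2 NF-Y boxes, and in Kif11 1 NF-Y box is followed by 1 CHR element in reverse. The Mcm5 and Mcm6 stretches each hold 2 NF-Y boxes and 2 E2F motifs and no CHR element. Of the same group, Mcm2 and Cdc45 hold an NF-Y box and a CHR element in the longer windows described next.

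The same motifs were searched in windows of 300 bases, from 250 before to 50 after each start site, which RefSeq gave for 41 of the 50 genes (45 windows, as 4 genes have 2). No window was at hand for Ccnd1, Ccnd2, Ccne2, Mcm4, Ccna2, Foxm1, Aurkb, Kif20a and Tpx2. Of 27 windows of the mitotic groups (kinases and cyclins, checkpoint, spindle, chromosome), 21 (77.8%) held a CHR element, against 17.9% of all 32851 windows and 12.5% of windows of genes above the floor. An NF-Y box stood in 22 of the 27 (81.5%, against 37.4% of all), and both motifs in 19 (70.4%, against 6.95%). Of 14 windows of the replication and nucleotide groups, 8 (57.1%, against 6.81% of all and 11.1% for genes above the floor) held an E2F motif and 2 (14.3%) a CHR element, while 12 (85.7%) held an NF-Y box. In 2 windows an E2F motif overlapped an NF-Y box. None of the 4 windows of Ccnd3, Ccne1 and E2f1 held a CHR element or one of the E2F motifs searched. Neighbouring NF-Y boxes on one strand were 31 to 34 bases apart in 9 of 37 cases (24.3%) among these genes and in 9.05% of 3512 cases over all windows, a range chosen after the windows were examined.

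Set beside the arrays, the 22 genes above the floor with a CHR element in a window had a median log2 difference of -1.13 between CD8+CX3CR1+ and CD8+CX3CR1- DCs, and 14 of them were at least 2-fold lower in CD8+CX3CR1+ DCs. The 17 genes with a window and no CHR element had a median of -0.59, with 5 at least 2-fold lower (all genes above the floor 5.81%). Against DN DCs these medians were -1.10 and -0.64. The spans overlapped, from -1.89 to 0.32 with a CHR element and from -1.43 to 0.35 without one. Genes with the element are mostly the genes of mitosis, so element and role cannot be told apart here, and a match of letters is not a bound site.

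**Figure D5:**
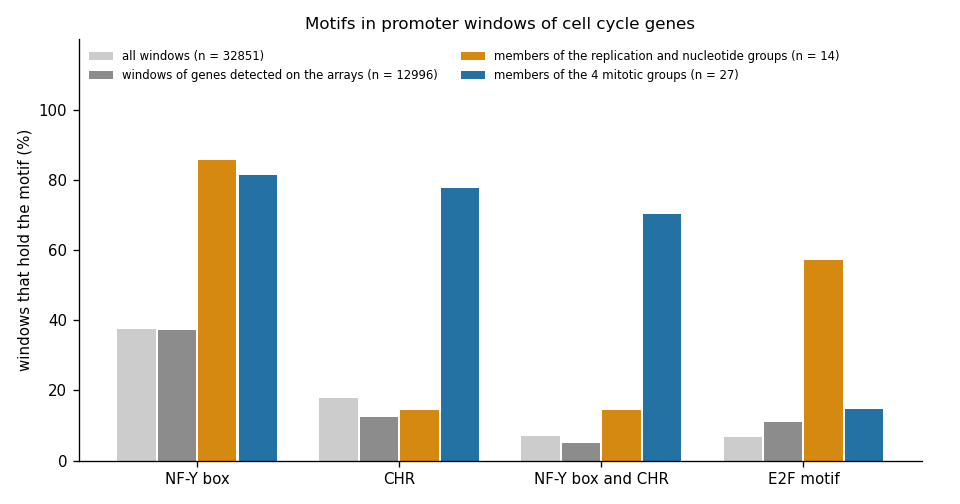
Bars give the percentage of 300-base promoter windows that hold a motif, for all windows, windows of genes above the floor, windows of the replication and nucleotide genes and windows of the mitotic genes (n in the key). The CHR element stands in 77.8% of mitotic windows and 14.3% of replication and nucleotide windows, and the E2F motifs in 14.8% and 57.1%.

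Cell cycle genes outside the 50 were taken from lists made by role. Of 31 other genes of mitosis above the floor, 8 (25.8%, background 5.81%) were at least 2-fold lower in CD8+CX3CR1+ than in CD8+CX3CR1- DCs. In that pair 1 was higher (3.23%, background 7.72%), and the median was -0.60. Against DN DCs 8 were lower (25.8%, background 2.93%) and 0 higher (background 2.97%), with a median of -0.76. Against CD4+ DCs 0 were lower (background 4.89%) and 1 higher (3.23%, background 4.47%), with a median of -0.03. CD4+ DCs had the lowest signal for 12 of the 31 genes (38.7%, against 24.3% of all). CD8+CX3CR1+ DCs had it for 15 (48.4%, against 23.1%). The largest spans in that list were those of Ckap2, a spindle protein (63.5, 148, 18.8 and 215 in CD8+CX3CR1+, CD8+CX3CR1-, CD4+ and DN DCs), Kif23, a motor of cell division (473, 1648, 856 and 1129), and Nuf2, a kinetochore protein (56.6, 138, 110 and 166). Of 27 other replication genes, 5 (18.5%, background 5.81%) were at least 2-fold lower in CD8+CX3CR1+ than in CD8+CX3CR1- DCs. In that pair 1 was higher (3.70%, background 7.72%), and the median was -0.32. Against DN DCs 4 were lower (14.8%, background 2.93%) and 0 higher (background 2.97%), with a median of -0.53. Against CD4+ DCs 1 was lower (3.70%, background 4.89%) and 0 higher (background 4.47%), with a median of 0.01. CD4+ DCs were lowest for 12 of the 27 (44.4%, against 24.3% of all) and CD8+CX3CR1+ DCs for 13 (48.1%, against 23.1%). Gins2, of the GINS part of the replicative helicase, read 118, 389, 157 and 184, Mcm10, which helps to start forks, 112, 302, 349 and 225, and Prim2, of primase, 106, 237, 198 and 291.

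Among 19 other E2F factors, CDKs and their activators, CD4+ DCs had the lowest signal for 9 (47.4%, against 24.3% of all). The median between CD8+CX3CR1+ and CD8+CX3CR1- DCs was -0.16. In that pair 2 genes were at least 2-fold lower (10.5%, background 5.81%) and 0 higher (background 7.72%). Between CD8+CX3CR1+ and CD4+ DCs the median was 0.23, with 2 lower (10.5%, background 4.89%) and 4 higher (21.1%, background 4.47%). CD4+ DCs were at least 2-fold lower than DN DCs for 5 genes (26.3%, background 3.23%) and higher for 0 (background 4.34%). CD8+CX3CR1- DCs exceeded CD4+ DCs by as much for 4 genes (21.1%, background 6.78%) and were lower for 2 (10.5%, background 9.11%). Myb, a transcription factor of dividing blood progenitors, read 862, 488, 96.0 and 230, and so was highest in CD8+CX3CR1+ DCs and 8.98-fold lower in CD4+ DCs. Wee1, the kinase that holds CDK1 back, read 136, 110, 28.4 and 251, and Cks1b, a small CDK-binding protein, 1534, 3717, 843 and 2428. Of 14 CDK inhibitors, pocket proteins and antiproliferative genes, 2 (14.3%, background 5.81%) were at least 2-fold lower in CD8+CX3CR1+ than in CD8+CX3CR1- DCs. In that pair 0 were higher (background 7.72%), and the median was 0.09. The 3 widest were Btg2, an antiproliferative gene (947, 2601, 1963 and 2247), Cdkn2b, which encodes the inhibitor p15 (53.6, 117, 102 and 147), and Rb1, the retinoblastoma gene (427, 260, 476 and 623). Btg2 and Cdkn2b were lowest in CD8+CX3CR1+ DCs, where Cdkn2b lay under the floor.

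Markers of other dividing or contaminating cells were read on the same arrays. Of 6 erythroid precursor markers 0 lay above the floor on any array, the highest value being 53.6 for Gata1. Of 5 B cell and plasmablast markers 3 lay above the floor on some array, with a summed signal of 502, 605, 454 and 347 in CD8+CX3CR1+, CD8+CX3CR1-, CD4+ and DN DCs. Cd79a lay under the floor on all 4, and Ms4a1 (CD20) read 361, 446, 202 and 163. The sums were 219, 102, 275 and 212 for 4 T cell markers, 181, 116, 75.4 and 152 for 3 NK cell markers and 135, 217, 214 and 113 for 5 neutrophil and precursor markers. For 5 red pulp macrophage markers the sum was 1300, 793, 3631 and 1977, and for 5 plasmacytoid DC markers 4737, 802, 676 and 1624. The macrophage sum was lowest in CD8+CX3CR1- DCs and was carried by Adgre1 (579, 143, 3068 and 1692), while Vcam1 was highest on that array (291, 513, 142 and 109). Cd5l (177, 34.7, 148 and 55.3) and C1qa (197, 27.9, 203 and 40) lay above the floor only in CD8+CX3CR1+ and CD4+ DCs. Spic spanned 1.40-fold (56.9, 74.1, 70.5 and 79.6) and was lowest in CD8+CX3CR1+ DCs. The plasmacytoid sum was highest in CD8+CX3CR1+ DCs, the subset with the lowest cell cycle signals, mainly through Tcf4 (3489, 270, 470 and 1135). Markers that set DC subsets apart moved with the groups as well. The sum of 5 CD8 DC markers was 5089, 22453, 3417 and 6911, with Irf8 at 1409, 13285, 617 and 4847 and Tlr3 at 98.4, 1338, 59.2 and 214, and that of 4 CD4 and CD11b DC markers was 1716, 91.3, 1885 and 1253. The CD8 DC sum was thus highest, and the CD4 and CD11b DC sum lowest, in CD8+CX3CR1- DCs. Batf3 alone of the 5 CD8 DC markers was highest elsewhere, in CD4+ DCs (1028, 2570, 2678 and 1668). The part of these cells and of the subset makeup in the cell cycle values was not tested. All 5 markers of conventional DCs lay above the floor on every array.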

How the data were processed

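Signals were measured on 4 arrays, 1 for each DC subset. The deposited values are linear intensity values of the authors, from MAS5, per the submitters' processing notes, with no version named. The mean after trimming 2% at each end was 150.0 on all 4, so each array was scaled as a whole and differences in total RNA per cell cannot be seen. Of 45101 probe sets, 64 are controls and 34945 name 1 gene in the platform annotation; those naming several (932) or none (9160) were not used. The floor of 55.7 was the 90th percentile of the signals of 127 probe sets for smell, taste and pheromone receptors and keratin-associated proteins. On the single arrays this percentile was 46.9, 62.6, 59.9 and 52.8, so values near the floor hold little information. Where 1 array lay under the floor, the fold is a lower bound ("at least"). Without replicates there is no test, and genes at least 2-fold apart are counted beside the share of all genes above the floor. The genes, lists, motifs and alternatives were chosen with earlier results of these data known. Every gene is named. Values on all arrays are given for those at least 2-fold apart in any of the 6 pairs and for the brightest of each of 7 roles, and in other lists for the 3 widest. Calculations used Python 3.11.15, pandas 2.3.3 and numpy 2.4.6, and were tested on simulated data. Alternatives were 2 scalings, 4 floors, 2 other choices of probe set, 4-fold and, chosen after seeing the data, the next brightest probe set.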

Additional observations from a re-analysis of the deposited data

How the results depend on the processing

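The median differences of the cell cycle genes kept their sign under all 9 alternatives for 5 of the 6 pairs. The sixth, CD8+CX3CR1- minus DN DCs, turned from 0.03 to -0.065 with the mean over probe sets and to -0.050 with the next brightest probe set, and was 0 without the probe sets with _x, _s or _a names, which can match several transcripts. The counts below are of genes at least 2-fold apart, and percentages in brackets are the shares of all genes under the same alternative. With arrays scaled to an equal median, 13 genes were higher in CD8+CX3CR1- than CD4+ DCs (12.7%). In CD4+ compared with DN DCs 1 was higher (1.66%) and 10 lower (6.92%). In CD8+CX3CR1+ compared with CD4+ DCs 4 were lower (2.18%), while CD4+ DCs were highest for 3 genes (16.4%). CD8+CX3CR1+ DCs were highest for 1 gene under each of equal median, quantile normalization, a lower floor (75th percentile), no floor, a floor for each array, the mean over probe sets and the omission of probe sets with _x, _s or _a names (22.2% to 29.5%). Compared with CD8+CX3CR1- DCs they were higher for 1 gene with quantile normalization (6.97%), with no floor (19.7%) and with the mean over probe sets (6.72%). Compared with DN DCs they were higher for 1 gene with no floor (16.6%). Under a higher floor, the 95th percentile, 1 gene was higher in CD4+ than DN DCs (2.94%). The mean over probe sets, over 44 genes, left 4 higher in CD8+CX3CR1- than CD4+ DCs (6.29%). It left 1 higher (4.41%) and 2 lower (3.02%) in CD4+ than DN DCs. In CD8+CX3CR1+ DCs it left 5 lower than in CD4+ DCs (4.81%) and 12 lower than in DN DCs (3.23%). Without the _x, _s and _a probe sets 2 of 39 genes were lower in CD4+ than DN DCs (3.09%) and 1 higher in CD8+CX3CR1- than DN DCs (4.91%). At the next brightest probe set the median of CD8+CX3CR1+ minus CD8+CX3CR1- DCs was -0.20, with 4 genes higher (6.17%) and 8 lower (4.88%). There, 1 gene was higher (4.05%) and 3 lower (3.89%) in CD4+ than DN DCs. In CD8+CX3CR1+ than CD4+ DCs 1 was higher (4.57%) and 5 lower (4.45%). In CD8+CX3CR1+ than DN DCs 1 was higher (2.90%) and 8 lower (2.80%), and in CD8+CX3CR1- than DN DCs 3 were higher (4.46%). CD8+CX3CR1+ DCs were then highest for 3 genes (21.8%) and CD8+CX3CR1- DCs for 10 (25.6%), over the 32 genes with such a probe set. At 4-fold 1 gene, Ccnd2, was left in each of 3 counts and 0 in the others. The 3 were lower in CD8+CX3CR1- than CD4+ DCs (1.8%) or DN DCs (1.28%) and lower in CD8+CX3CR1+ than CD4+ DCs (0.373%). The cause of these shifts was not tested. No paired analysis was possible because each group has 1 array, and for the same reason no array could be left out. Signal over background limits genes near the floor, such as Foxm1.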
